A study of Mus musculus with 8 samples.

Results

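The genes described here encode the Wnt ligands, R-spondins, Frizzled receptors, the co-receptors Lrp5 and Lrp6, and the secreted antagonists of the Dkk, Sfrp and Wif1 families. They were chosen by symbol alone, as every gene of the count table whose symbol is Wnt, Rspo, Dkk, Sfrp or Fzd followed by its number, or is Wif1, Lrp5 or Lrp6. The choice took 44 of the 55418 gene symbols. Its rule used no measured value, although earlier results of these data were known when it was made. These are 19 Wnt ligands, 4 R-spondins, 10 Frizzled receptors, 2 co-receptors and 9 secreted antagonists. Of the 44 genes, 28 had enough counts to be tested, 16 did not, and 6 of those 16 were at 0 in all 8 libraries.

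Wnt ligands are lipid-modified secreted proteins that bind a Frizzled receptor together with Lrp5 or Lrp6, which keeps the cytoplasmic protein β-catenin from being degraded and lets it switch on target genes with TCF and LEF factors. R-spondins prolong that signal by binding Lgr receptors and clearing the enzymes that remove Frizzled receptors from the cell surface, whereas Sfrp and Wif1 proteins bind Wnt ligands and Dkk proteins bind the co-receptors. In the colon this pathway keeps stem cells at the crypt base, and much of the ligand and R-spondin comes from cells of the wall around the crypts.

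The 8 libraries are total RNA of distal colon from C57BL/6 mice aged 8 to 10 weeks, with 2 mice in each of 4 groups. The groups are wild-type (WT) mice left untreated, WT mice given DSS, NAIL-ΔNFκB mice left untreated and NAIL-ΔNFκB mice given DSS. DSS is dextran sulfate sodium, which injures the colon epithelium, and it was given at 3% for 4 days before 4 days of normal water. NAIL is a long noncoding RNA, and ΔNFκB is the name in the labels for the altered line; the labels do not say which bases were changed or whether 1 founder gave the line. The design addresses what DSS does in each genotype, how the genotypes differ with and without DSS, and whether the DSS response depends on the genotype.

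Total counts ran from 9229861 to 16935961 per library. Gm16685, the annotated gene known as mouse NAIL, had 3 and 20 counts without and 57 and 126 with DSS in WT mice, and 3 and 4 without and 55 and 86 with DSS in ΔNFκB mice, so its count does not check the genotype labels. Markers of colon epithelium were present in every library, with summed levels of 6960 to 21400 CPM (counts scaled to library size, with TMM factors) over 11 genes and none at 0. Y-linked transcripts summed to 233 to 248 CPM in both ΔNFκB untreated libraries and WT untreated replicate 2, and to at most 0.183 CPM in the other 5. DSS and sex therefore cannot be told apart in ΔNFκB mice without a model term that rests on the WT untreated pair. The tissue was sequenced in bulk, where fewer cells of a type and less RNA per cell cannot be told apart.

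The regions just upstream of 3 genes are shown because the results turn on these genes or because they carry a match to an NF-κB site. Each is the 250 bases before the annotated start, from RefSeq on GRCm38.p6, read 5′ to 3′ on the strand of the gene. Wnt8b (chr19:44493222-44493471, plus strand) had the largest fitted DSS change of the tested members in each genotype. In ΔNFκB mice Wnt10b was close to it (log2 fold change -4.24 against -4.33) and fell further by counts (22.6-fold against 20.9-fold). Dkk2 (chr3:132085042-132085291, plus strand) had the largest called genotype difference after DSS. Wnt10b (chr15:98778151-98778400, minus strand) fell with DSS in ΔNFκB mice, and capitals in its sequence mark 2 matches to the NF-κB site.
Wnt8b: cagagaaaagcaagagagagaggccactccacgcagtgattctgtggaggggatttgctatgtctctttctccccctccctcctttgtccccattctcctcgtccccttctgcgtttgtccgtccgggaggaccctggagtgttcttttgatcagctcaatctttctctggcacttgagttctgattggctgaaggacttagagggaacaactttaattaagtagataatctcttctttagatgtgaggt
Dkk2: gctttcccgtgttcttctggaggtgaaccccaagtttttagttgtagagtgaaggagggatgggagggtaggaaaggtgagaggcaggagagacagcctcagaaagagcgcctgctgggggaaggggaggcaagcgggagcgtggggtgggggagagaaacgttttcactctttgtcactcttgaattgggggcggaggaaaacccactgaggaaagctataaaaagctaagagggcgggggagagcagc
Wnt10b: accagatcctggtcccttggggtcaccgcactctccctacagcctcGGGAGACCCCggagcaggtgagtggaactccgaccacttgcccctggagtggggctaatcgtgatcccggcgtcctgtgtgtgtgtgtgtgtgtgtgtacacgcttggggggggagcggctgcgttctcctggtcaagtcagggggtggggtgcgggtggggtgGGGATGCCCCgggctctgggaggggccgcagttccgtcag
RefSeq windows were found for 28 of the 44 genes, 17 of them among the 28 tested. Windows were searched on both strands for the TCF/LEF core (CTTTGWW, with A or T for each W) and for the NF-κB site. The NF-κB site was GGGRNNYYCC, with A or G for R, C or T for each Y and any base for each N. The TCF/LEF core was present in 3 of 20 windows of tested members (Fzd7, Wnt11 and Wnt5b), or 15%, against 14.8% of 32851 windows of all genes. The NF-κB site was present in 2 of 20 (Fzd5 and Wnt10b), or 10.0%, against 7.25%. Of the 9 members lower in ΔNFκB than in WT mice after DSS, 4 had a window, and 0 of these 4 windows held either motif. A match describes letters in this window and not a bound site.

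Without DSS, the highest levels were those of the co-receptor Lrp6 and the receptor Fzd5, both above every ligand. Per kilobase of exon, which allows genes to be compared, Lrp6 was at 21.0 ± 0.377 CPM (SD, n = 2) in WT mice and Fzd5 at 17.3 ± 1.99. Dkk3, a Dkk family member whose part in Wnt signalling is less settled, came next at 7.81 ± 1.76 CPM per kilobase, followed by Fzd1 at 7.44 ± 0.754, Sfrp1 at 6.50 ± 1.78 and Lrp5 at 5.44 ± 0.695. In this order of the last 4 each gene overlapped the next in its libraries. The most abundant ligand, Wnt2b, reached 1.97 ± 0.439 CPM per kilobase, near the receptors Fzd2 at 2.34 and Fzd8 at 2.12 and level with Sfrp2 at 1.94 ± 0.669 and the R-spondin Rspo3 at 1.93 ± 0.854. Wnt5a was at 1.63 ± 0.609 and Wnt8b at 0.973 ± 0.312 CPM per kilobase, and the other 6 tested ligands were below 0.5. The receptor Fzd3, at 0.362, was below these 3 ligands.

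**Figure D1:**
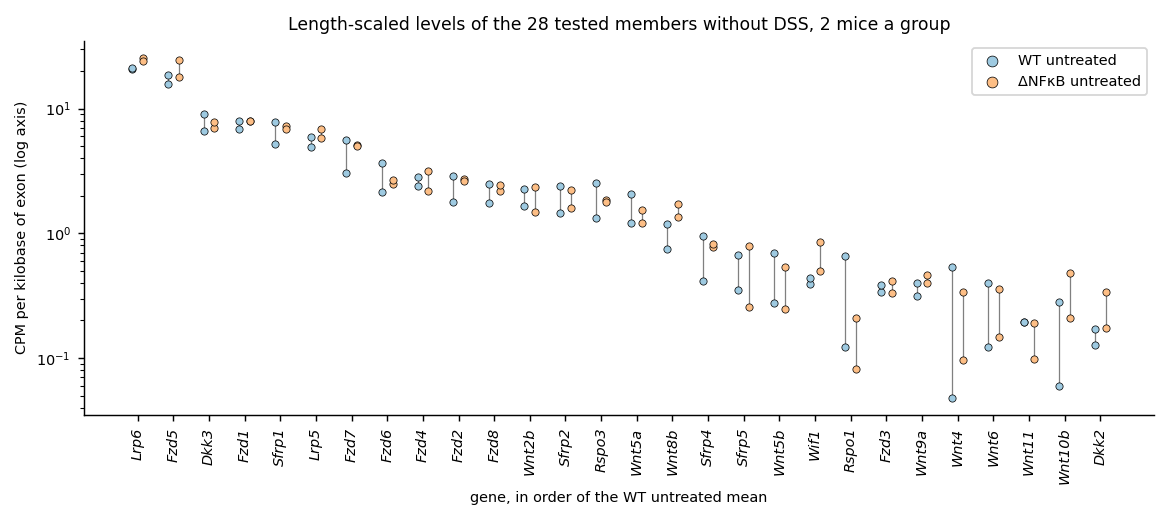
Levels of the 28 tested members without DSS, as CPM per kilobase of exon on a log axis, with each dot a mouse and a line joining the pair of a group. Genes run in the order of the WT untreated mean, from Lrp6 at 21.0 down to Dkk2 at 0.150, and the genotypes lie close together for most of them.

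With DSS, 8 of these genes changed in WT mice and 17 in ΔNFκB mice. In WT mice the co-receptor Lrp5, the receptor Fzd1 and the antagonist Sfrp1 rose, while the ligands Wnt2b and Wnt8b, the receptors Fzd2 and Fzd8 and the co-receptor Lrp6 fell. In ΔNFκB mice Lrp5 again rose, and 16 members fell: 4 ligands, Rspo3, 5 Frizzled receptors, Lrp6 and 5 antagonists. Wnt2b, Wnt8b, Fzd2, Fzd8, Lrp5 and Lrp6 changed in the same direction in both genotypes, and Fzd1 and Sfrp1 rose in WT mice and fell in ΔNFκB mice. The calls are those of edgeR's quasi-likelihood test at a Benjamini-Hochberg adjusted p under 0.05 over all 17522 genes tested. They made up 8 of 28 tested members in WT mice (28.6%), where 36.0% of all genes were called, 17.2% higher and 18.8% lower. In ΔNFκB mice they made up 17 of 28 (60.7%), where 35.4% of all genes were called, 16.2% higher and 19.2% lower. The median log2 fold change of the 28 was -0.10 in WT mice, against 0.00 over all genes, and -1.59 in ΔNFκB mice, against -0.04. The 28 are the members that passed the count filter and not all 44. With a term for sex 13 members were called in ΔNFκB mice, among them Fzd7, which had not been, while Dkk2, Fzd3, Lrp5, Lrp6 and Wnt9a were lost. The WT count dropped to 5 without WT DSS replicate 1 and to 3 without WT DSS replicate 2, and the ΔNFκB count to 11 without ΔNFκB DSS replicate 2.

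**Figure D2:**
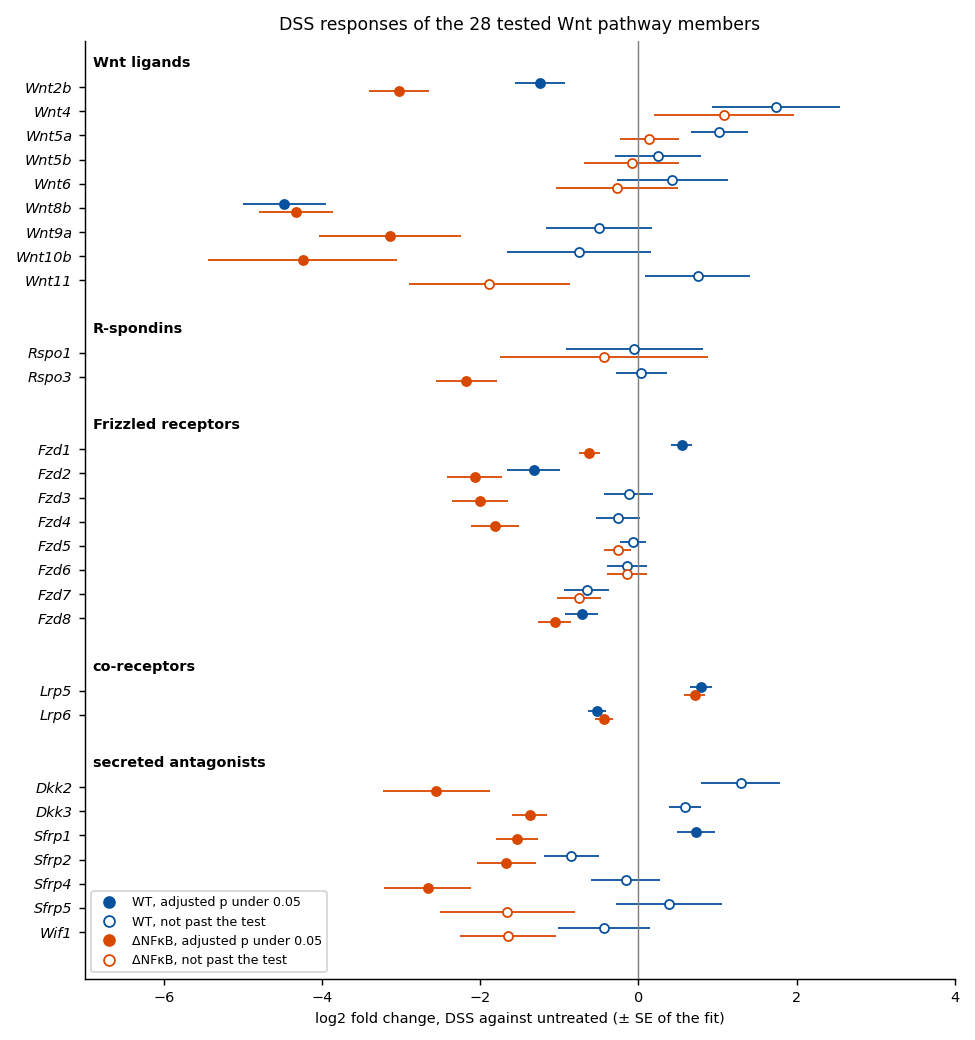
Log2 fold change of DSS against untreated for the 28 tested members in WT mice (blue) and ΔNFκB mice (orange), with bars of ± 1 SE of the fit. Filled points passed an adjusted p of 0.05: 8 in WT mice, on both sides of 0, and 17 in ΔNFκB mice, of which Lrp5 alone lies above 0.

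The genotypes did not differ detectably in any of the 28 tested genes before DSS, and after DSS 9 of them were lower in ΔNFκB mice. Without DSS 0 of 28 members were called, where 0.388% of all genes were (0.0399% higher and 0.348% lower), and 0 had an unadjusted p under 0.05, where 16.2% of all genes did. DESeq2 and limma-voom also called 0, and with groups of 2 a difference could go undetected. In simulated data for the other comparisons of 2 groups, the fit recovered 22% to 40.5% of 2-fold and 69% to 79.5% of 4-fold changes. The untreated comparison was not simulated. The changed genes were drawn from all genes tested, so these rates need not hold for the 28 members. After DSS the 9 were the ligand Wnt2b, Rspo3, the receptors Fzd1, Fzd3 and Fzd4, and the antagonists Sfrp1, Sfrp4, Dkk2 and Dkk3, and no member was higher. That is 32.1% of the 28, where 20.0% of all genes were called in either direction, 8.32% higher and 11.7% lower. The median log2 difference of the 28 after DSS was -1.10, against 0.03 over all genes. The count was 4 without WT DSS replicate 2 and 3 without ΔNFκB DSS replicate 2.

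The DSS response itself also differed by genotype. The test of the difference of the responses, ΔNFκB minus WT, shares the DSS libraries with the comparison above and called 9 members, all more negative in ΔNFκB mice, where 17.7% of all genes were called, 9.07% in that direction and 8.63% in the other. The median of the 28 differences was -1.03, against -0.05 over all genes. The count rested on single libraries: it was 5 without WT DSS replicate 1, 4 without WT untreated replicate 2 and 3 without WT DSS replicate 2, ΔNFκB untreated replicate 1 or ΔNFκB DSS replicate 1, and it was 2 without ΔNFκB DSS replicate 2. The 2 left in that last fit were Dkk3 and Sfrp1. DESeq2 called 5, limma-voom 6, and a fit with a sex term 8, without Fzd3. By Y-linked transcripts all DSS libraries read as female and the untreated groups held unequal numbers of males. A sex effect could therefore enter this difference too.

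**Figure D3:**
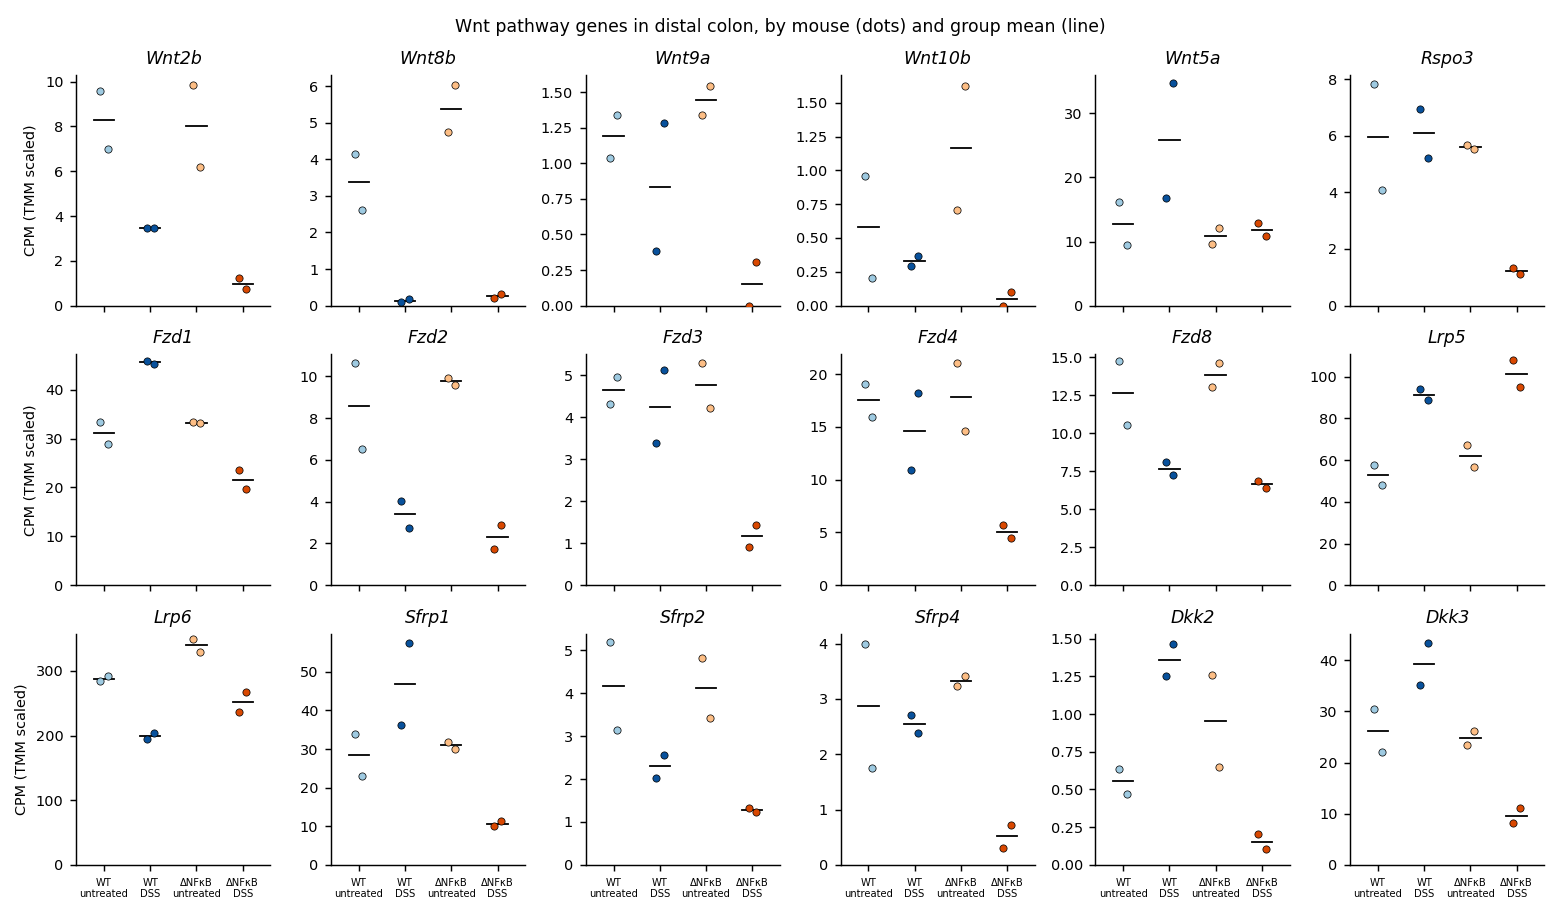
CPM of 18 members in each of the 8 libraries (dots) with the group mean (line), each panel on its own axis from 0. Rspo3, Fzd3, Fzd4 and Sfrp4 are low in the ΔNFκB DSS group and of like level in the other 3, whereas Wnt8b is low in both DSS groups.

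Wnt2b, a ligand of the β-catenin branch made in the gut by stromal cells, fell in both genotypes and further in ΔNFκB mice. The gene lies at chr3:104945272-104961921 on the minus strand (mm10). Its level was 9.58 and 6.98 CPM in untreated and 3.48 and 3.48 in DSS-treated WT mice, against 9.86 and 6.18 in untreated and 1.23 and 0.721 in DSS-treated ΔNFκB mice. The untreated groups overlapped, both DSS groups lay below them, and the ΔNFκB DSS pair was lowest. The log2 fold change with DSS was -1.25 ± 0.32 (SE) in WT mice (edgeR adjusted p = 0.0182) and -3.03 ± 0.38 in ΔNFκB mice (adjusted p = 0.000868). After DSS the genotypes differed by -1.82 ± 0.40 (adjusted p = 0.0181), and the responses by -1.78 ± 0.50 (adjusted p = 0.0437). The fall in ΔNFκB mice held with any library left out. The WT fall was lost without WT untreated replicate 1 (adjusted p = 0.086) or either WT DSS replicate (0.0837 and 0.087). The genotype difference after DSS was lost without either WT DSS replicate (0.0604 and 0.0811) or ΔNFκB DSS replicate 2 (0.134) and in limma-voom (0.0566), and the difference of responses without any of 6 libraries, with adjusted p up to 0.164, in DESeq2 (0.0619) and in limma-voom (0.0820).

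Wnt8b, a ligand best known from the embryonic brain, was nearly absent after DSS in both genotypes. It lies at chr19:44493472-44514273 on the plus strand, just downstream of the sequence printed above. It stood at 4.15 and 2.62 CPM without and 0.0966 and 0.183 with DSS in WT mice, and 4.73 and 6.02 without and 0.205 and 0.309 with DSS in ΔNFκB mice. Both DSS groups lay far below both untreated groups. From 91 counts in the WT untreated pair it went to 3 in the WT DSS pair, which is 23.5-fold lower (95% exact counting interval 7.80 to 116). In ΔNFκB mice it went from 134 to 5 counts, 20.9-fold lower (8.73 to 65.4). Such intervals cover counting error only. The log2 fold changes were -4.48 ± 0.52 (adjusted p = 0.000729) and -4.33 ± 0.47 (adjusted p = 0.000497), and both calls held with any library left out.

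Wnt9a and Wnt10b, both ligands of the β-catenin branch, fell in ΔNFκB mice from low levels. Wnt9a (chr11:59306928-59333552) was at 1.04 and 1.34 CPM in untreated and 0.386 and 1.28 in DSS-treated WT mice, against 1.34 and 1.55 in untreated and 0 and 0.309 in DSS-treated ΔNFκB mice. Its counts in ΔNFκB mice went from 36 to 3, 9.35-fold lower (2.96 to 47.5), with a log2 fold change of -3.14 ± 0.90 (adjusted p = 0.0276). Wnt10b (chr15:98770712-98778150) was at 0.958 and 0.201 CPM without and 0.290 and 0.366 with DSS in WT mice, and 0.710 and 1.63 without and 0 and 0.103 with DSS in ΔNFκB mice. Its counts went from 29 to 1, 22.6-fold lower (3.75 to 923), with a log2 fold change of -4.24 ± 1.20 (adjusted p = 0.0260). For both genes 1 ΔNFκB DSS library was at 0, and the WT groups overlapped. Without ΔNFκB DSS replicate 2 the fitted change was -7.09 for Wnt9a and -6.78 for Wnt10b, both set by the remaining library at 0. The Wnt9a call was lost without either ΔNFκB untreated replicate (adjusted p = 0.072 and 0.0844) or ΔNFκB DSS replicate 1 (0.125), and with a sex term (0.192). The Wnt10b call was lost without ΔNFκB untreated replicate 2 (0.116), ΔNFκB DSS replicate 1 (0.134) or ΔNFκB DSS replicate 2 (0.0774), and in DESeq2 (0.0621).

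Among ligands that did not pass the test, Wnt5a is the main ligand of the branch that does not use β-catenin. It stood at 16.1 and 9.39 CPM in untreated and 16.8 and 34.8 in DSS-treated WT mice, against 9.54 and 12.04 in untreated and 12.9 and 10.8 in DSS-treated ΔNFκB mice. WT DSS replicate 2 was the highest of the 8, and the log2 fold change in WT mice was 1.02 ± 0.36 (adjusted p = 0.0570), or 0.40 without that library. The WT change passed without WT untreated replicate 1 (0.0365), WT DSS replicate 1 (0.0207) or the count filter (0.0100). DESeq2 called the WT change (adjusted p = 0.0236) and the genotype difference after DSS (0.0198), for which edgeR gave -1.12 ± 0.37 (adjusted p = 0.0654). That difference was -0.495 without WT DSS replicate 2, and it passed without either WT untreated replicate (0.0475 and 0.0468), WT DSS replicate 1 (0.0278) or the count filter (0.00867), and with a sex term (0.0456). Wnt4 had a log2 fold change of 1.74 ± 0.81 in WT mice (adjusted p = 0.126), and the value was 4.25 without WT untreated replicate 1 (adjusted p = 0.0109) and 0.85 without WT untreated replicate 2. It passed in limma-voom (0.0424) and without the count filter (0.0406). For Wnt11 the fitted genotype difference after DSS was -3.05 ± 0.93 (adjusted p = 0.0514), from 29 counts in the WT pair and 3 in the ΔNFκB pair. It was -7.01 without ΔNFκB DSS replicate 1, set by the remaining library at 0, and passed without the count filter (0.0165). Wnt5b and Wnt6 passed no test, and their group means stayed between 0.463 and 1.51 CPM.

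Of the R-spondins, Rspo3 was the one measured at a level that could be followed, and it was low in ΔNFκB DSS mice. Rspo3 is the main R-spondin of gut stroma and a ligand of Lgr4 and Lgr5, and it lies at chr10:29452416-29535867 on the minus strand. The libraries had 7.82 and 4.09 CPM without and 6.95 and 5.22 with DSS in WT mice, and 5.68 and 5.53 without and 1.33 and 1.13 with DSS in ΔNFκB mice. The first 3 groups overlapped and the fourth lay below them all. The log2 fold change with DSS was -2.18 ± 0.39 in ΔNFκB mice (adjusted p = 0.00381), a call that held with any library left out. After DSS the genotypes differed by -2.29 ± 0.39 (adjusted p = 0.00750), and the responses by -2.21 ± 0.51 (adjusted p = 0.0252). The genotype call after DSS was lost without ΔNFκB DSS replicate 2 (adjusted p = 0.0728), and the difference of responses without any of 5 libraries, with adjusted p up to 0.103. A gene on the other strand covers 13.1% of its exon bases, and the strand setting of the counting is not given in the sources used here. Rspo1 had 49 counts over all libraries and passed no test.

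The Frizzled receptors, which bind Wnt ligands at the cell surface, divided into those that changed with DSS in ΔNFκB mice (Fzd1, Fzd2, Fzd3, Fzd4 and Fzd8) and those that passed no test (Fzd5, Fzd6 and Fzd7). Fzd5, the receptor with the highest level per kilobase and one expressed in gut epithelium, stayed between 107 and 171 CPM in all 8 libraries. A gene on the other strand covers 17.8% of its exon bases, the largest such share of the 44 genes. Fzd6 stayed between 10.4 and 17.8 CPM. Fzd7 had group means of 19.6 ± 8.18 CPM in WT untreated, 12.4 ± 2.39 in WT DSS, 22.8 ± 0.238 in ΔNFκB untreated and 13.5 ± 1.91 in ΔNFκB DSS. Its log2 fold change was -0.75 in ΔNFκB mice (adjusted p = 0.0692) and -0.66 in WT mice (adjusted p = 0.102), and with a sex term both passed, at -1.63 (0.0124) and -1.03 (0.0139). The WT value was -0.13 without WT untreated replicate 1 and -1.005 without replicate 2 (0.0145). The ΔNFκB value also passed without either WT untreated replicate (0.0165 and 0.0154), without the count filter (0.0304), and with only its 2 groups in the fit (0.0121).

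Fzd1 (chr5:4753839-4758035) moved in opposite directions in the genotypes. It had 33.5 and 29.0 CPM in untreated and 46.0 and 45.2 in DSS-treated WT mice, against 33.4 and 33.1 in untreated and 23.6 and 19.7 in DSS-treated ΔNFκB mice. The WT DSS pair was above and the ΔNFκB DSS pair below all untreated libraries. The log2 fold change was 0.55 ± 0.13 in WT mice (adjusted p = 0.0144) and -0.62 ± 0.14 in ΔNFκB mice (adjusted p = 0.00912). With DSS the 2 genotypes differed by -1.08 ± 0.14 (adjusted p = 0.00318), which held with any library left out, and the responses by -1.17 ± 0.19 (adjusted p = 0.00992). The WT rise was lost without WT untreated replicate 2 (adjusted p = 0.0627) or either WT DSS replicate (0.0711 and 0.0643), and with a sex term (0.0705). Without ΔNFκB DSS replicate 2 the ΔNFκB fall (0.0904) and the difference of responses (0.0520) were lost.

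Fzd3 (chr14:65192449-65262463), a receptor of the planar polarity branch, and Fzd4 (chr7:89404355-89413134), a receptor known for its part in blood vessels, fell in ΔNFκB mice alone by the test, and for both the difference of responses was called. Fzd3 was at 4.31 and 4.96 CPM without and 3.38 and 5.13 with DSS in WT mice, and 5.28 and 4.23 without and 0.922 and 1.44 with DSS in ΔNFκB mice. The fitted log2 fold change in ΔNFκB mice was -2.00 ± 0.36 (adjusted p = 0.00373), the genotype difference after DSS -1.84 ± 0.36 (adjusted p = 0.0121) and the difference of responses -1.88 ± 0.47 (adjusted p = 0.0317). Fzd4 was at 19.1 and 15.96 CPM in untreated and 10.9 and 18.2 in DSS-treated WT mice, against 21.1 and 14.6 in untreated and 5.74 and 4.43 in DSS-treated ΔNFκB mice. Its corresponding values were -1.81 ± 0.30 (adjusted p = 0.00293), -1.52 ± 0.31 (0.0138) and -1.55 ± 0.41 (0.0377). In both genes the ΔNFκB DSS pair lay below the other 6 libraries, which overlapped. The DSS calls in ΔNFκB mice held with any library left out, although Fzd3 was lost with a sex term (0.0661). The genotype difference after DSS was lost without WT DSS replicate 2 (Fzd3 0.0838, Fzd4 0.0860) or ΔNFκB DSS replicate 2 (Fzd3 0.0591, Fzd4 0.118), and for Fzd3 also without ΔNFκB DSS replicate 1 (0.0706). The differences of responses were lost without any of 6 libraries for Fzd3 (adjusted p up to 0.114, 0.0520 with a sex term and 0.0640 in DESeq2) and of 5 for Fzd4 (up to 0.145, and 0.0535 in limma-voom).

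Fzd2 and Fzd8 fell in both genotypes. Fzd2 (chr11:102604396-102608058) was at 10.6 and 6.51 CPM without and 4.06 and 2.75 with DSS in WT mice, and 9.94 and 9.60 without and 1.74 and 2.89 with DSS in ΔNFκB mice. Its log2 fold change was -1.33 ± 0.34 in WT mice (adjusted p = 0.0173) and -2.07 ± 0.35 in ΔNFκB mice (adjusted p = 0.00312). Fzd8 (chr18:9212163-9218136) was at 14.8 and 10.5 CPM in untreated and 8.11 and 7.23 in DSS-treated WT mice, against 13.0 and 14.6 in untreated and 6.86 and 6.39 in DSS-treated ΔNFκB mice. The fitted log2 fold change was -0.72 ± 0.21 in WT mice (adjusted p = 0.0294) and -1.06 ± 0.21 in ΔNFκB mice (adjusted p = 0.00642). For both receptors every DSS library lay below every untreated one, and the difference of responses was not called. The WT fall of Fzd2 was lost without WT untreated replicate 1 (adjusted p = 0.0838) or WT DSS replicate 2 (0.110). That of Fzd8 was lost without WT untreated replicate 1 (-0.43, adjusted p = 0.161), either WT DSS replicate (0.0810 and 0.140) or ΔNFκB DSS replicate 2 (0.0515), in DESeq2 (0.0823) and with only its 2 groups in the fit (0.0661), and the ΔNFκB fall of Fzd8 without ΔNFκB DSS replicate 2 (0.0523).

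The co-receptors Lrp5 and Lrp6, which act beside Frizzled in the β-catenin branch, moved in opposite directions with DSS in both genotypes. Lrp5 (chr19:3584828-3686564) had 57.7 and 48.2 CPM without and 93.9 and 88.8 with DSS in WT mice, and 67.1 and 56.8 without and 108 and 94.8 with DSS in ΔNFκB mice. It rose by a log2 fold change of 0.79 ± 0.14 in WT mice (adjusted p = 0.00368) and 0.71 ± 0.14 in ΔNFκB mice (adjusted p = 0.00516). Lrp6 (chr6:134446476-134566965) had 284 and 291 CPM in untreated and 195 and 204 in DSS-treated WT mice, against 349.6 and 329.5 in untreated and 236 and 267 in DSS-treated ΔNFκB mice. Its log2 fold change was -0.53 ± 0.11 in WT mice (adjusted p = 0.00883) and -0.43 ± 0.11 in ΔNFκB mice (adjusted p = 0.0186). In each genotype the DSS libraries lay on 1 side of the untreated ones for both genes, and neither difference of responses was called. The Lrp5 calls held with any library left out, while a sex term took the ΔNFκB rise to 0.45 (adjusted p = 0.175) and the Lrp6 change in ΔNFκB mice to an adjusted p of 0.174. The Lrp6 call in WT mice was lost without WT DSS replicate 1 (adjusted p = 0.0643), and in ΔNFκB mice without any of the 4 ΔNFκB libraries (0.0514 to 0.140).

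Among the secreted antagonists, 5 of the 7 tested fell with DSS in ΔNFκB mice, where 19.2% of all genes did, and 1 rose in WT mice, where 17.2% did. Sfrp1 (chr8:23411502-23449632), which binds Wnt ligands and is made by stromal cells, was at 33.9 and 22.9 CPM without and 36.3 and 57.5 with DSS in WT mice, and 31.8 and 30.1 without and 10.0 and 11.3 with DSS in ΔNFκB mice. The ΔNFκB DSS pair was below all 6 other libraries, and the WT DSS pair above all untreated ones. The log2 fold change was 0.73 ± 0.24 in WT mice (adjusted p = 0.0481) and -1.53 ± 0.26 in ΔNFκB mice (adjusted p = 0.00323). After DSS the genotypes differed by -2.13 ± 0.26 (adjusted p = 0.00318), and the responses by -2.26 ± 0.36 (adjusted p = 0.00946). Except for the WT rise, these calls held with any library left out. The WT rise was 0.35 without WT DSS replicate 2 (adjusted p = 0.326). It was also lost without WT untreated replicate 2 (0.204), without any single ΔNFκB library (0.0599 to 0.0744), with a sex term (0.216) and with only its 2 groups in the fit (0.0961).

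Dkk3 (chr7:112116017-112159057) showed a like pattern. It had 30.4 and 22.1 CPM in untreated and 35.3 and 43.4 in DSS-treated WT mice, against 23.4 and 26.2 in untreated and 8.09 and 11.03 in DSS-treated ΔNFκB mice. The ΔNFκB DSS pair again lay below every other library. The log2 fold change was -1.38 ± 0.22 in ΔNFκB mice (adjusted p = 0.00245), the genotype difference after DSS -2.04 ± 0.22 (adjusted p = 0.00257) and the difference of responses -1.96 ± 0.30 (adjusted p = 0.00894). All 3 calls held with any library left out. In WT mice the value was 0.59 (adjusted p = 0.0546), which passed in limma-voom (0.0369), without WT untreated replicate 1 (0.0261), without the count filter (0.0299), with upper quartile factors (0.0460) and with scaling that left out immunoglobulin and like genes (0.0429).

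Dkk2 (chr3:132085292-132180304), which binds the co-receptors, was measured at few counts. It stood at 0.639 and 0.470 CPM without and 1.26 and 1.47 with DSS in WT mice, and 1.26 and 0.651 without and 0.205 and 0.103 with DSS in ΔNFκB mice. After DSS there were 29 counts in the WT pair and 3 in the ΔNFκB pair, 8.84-fold lower (95% exact counting interval 2.74 to 45.4), with a fitted log2 difference of -3.06 ± 0.65 (adjusted p = 0.0168). Against the 24 counts of the untreated ΔNFκB pair the 3 counts were 6.24-fold lower (1.89 to 32.4), with a log2 fold change of -2.56 ± 0.67 (adjusted p = 0.0200). The responses differed by -3.85 ± 0.84 (adjusted p = 0.0214), where the WT value was 1.29 and not called (adjusted p = 0.0726). No Dkk2 call held with every library left out: the DSS fall was lost without ΔNFκB untreated replicate 1 (0.123) or either ΔNFκB DSS replicate (0.0682 and 0.131), and with a sex term (0.0946). The genotype difference after DSS was lost without any of the 4 DSS libraries (0.0516 to 0.132), and the difference of responses without any of 6 libraries (up to 0.0994). DESeq2 gave adjusted p of 0.118 for the DSS fall and 0.0724 for the genotype difference.

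Sfrp2 and Sfrp4, relatives of Sfrp1 expressed in fibroblasts, also fell in ΔNFκB mice. Sfrp2 (chr3:83766321-83774316) was at 5.19 and 3.15 CPM in untreated and 2.03 and 2.56 in DSS-treated WT mice, against 4.81 and 3.42 in untreated and 1.33 and 1.24 in DSS-treated ΔNFκB mice. The fitted log2 fold change was -1.67 ± 0.38 in ΔNFκB mice (adjusted p = 0.0103) and -0.85 in WT mice (adjusted p = 0.0873), which a sex term took to -1.17 (0.0494), and which was -0.42 without WT untreated replicate 1. Sfrp4 (chr13:19623104-19632994) was at 3.99 and 1.74 CPM without and 2.70 and 2.38 with DSS in WT mice, and 3.23 and 3.42 without and 0.307 and 0.721 with DSS in ΔNFκB mice. Its log2 fold change was -2.67 ± 0.54 in ΔNFκB mice (adjusted p = 0.00684), the genotype difference after DSS -2.28 ± 0.56 (adjusted p = 0.0260) and the difference of responses -2.51 ± 0.71 (adjusted p = 0.0443). For both genes the ΔNFκB DSS pair was below every other library. A gene on the other strand covers 16.1% of the exon bases of Sfrp2. The Sfrp2 fall was lost without ΔNFκB untreated replicate 1 (adjusted p = 0.0612) or either ΔNFκB DSS replicate (0.0553 and 0.0730), and the Sfrp4 fall without ΔNFκB DSS replicate 1 (0.0538). The genotype difference of Sfrp4 was lost without any of the 4 DSS libraries (0.0858 to 0.129) and in limma-voom (0.0566). Its difference of responses was lost without any of 7 libraries (up to 0.139), in DESeq2 (0.0624) and in limma-voom (0.0553).

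Sfrp5 and Wif1, the remaining tested antagonists, passed no test. Sfrp5 had group means of 0.974 ± 0.429 CPM in WT untreated, 1.25 ± 0.817 in WT DSS, 0.993 ± 0.715 in ΔNFκB untreated and 0.309 ± 0.147 in ΔNFκB DSS. Wif1, which binds Wnt ligands, had 1.02 ± 0.0814, 0.748 ± 0.238, 1.64 ± 0.587 and 0.513 ± 0.434 CPM in the same order. The fitted log2 fold change in ΔNFκB mice was -1.65 (adjusted p = 0.0642), with -2.92 without ΔNFκB DSS replicate 1 (adjusted p = 0.0424) and -0.96 without ΔNFκB DSS replicate 2.

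**Figure D4:**
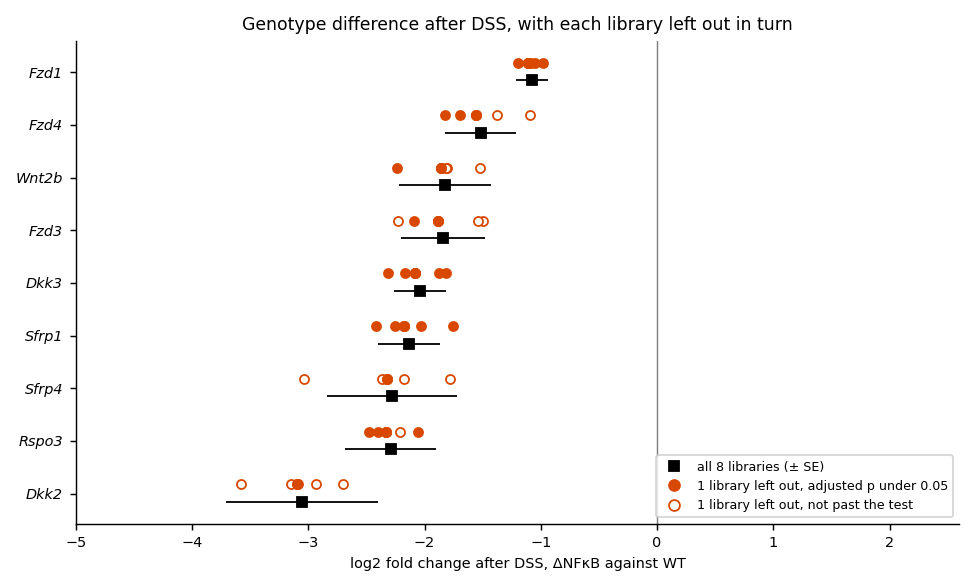
Log2 difference of ΔNFκB against WT mice after DSS for the 9 members past the test, with all 8 libraries (squares, ± SE) and with each library left out in turn (circles, filled where the adjusted p stayed under 0.05). Fzd1, Dkk3 and Sfrp1 stayed past the test in every such fit, and all circles lie below 0.

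The 16 members not tested had at most 36 counts over all libraries. Wnt1, Wnt3a, Wnt7a, Rspo4, Dkk1 and Dkk4 were at 0 in all 8, which allows up to 3 counts in a library, a level of 0.201 to 0.309 CPM. Wnt2, a stromal ligand of the β-catenin branch, had 11 and 6 counts in untreated and 2 and 2 in DSS-treated WT mice, against 5 and 7 in untreated and 0 and 0 in DSS-treated ΔNFκB mice. Every DSS library was below every untreated one. The WT DSS pair was 3.30-fold lower than the untreated pair (95% exact counting interval 1.08 to 13.5), and the ΔNFκB DSS pair at least 3.12-fold lower, from a floor set at 3 counts for the pair. Without the count filter edgeR called the Wnt2 change in ΔNFκB mice. Rspo2 had 36 counts in all, spread over 6 of the 8 libraries. Without DSS it had 3 counts in the ΔNFκB pair and 14 in the WT pair, 4.25-fold lower (95% exact counting interval 1.19 to 23.1). Without the count filter edgeR called 0 members in that comparison. Wnt3, a ligand that in the small intestine comes from Paneth cells, had 7 counts, and Wnt7b, Wnt8a, Wnt9b, Wnt10a, Wnt16, Fzd9 and Fzd10 had 1 to 12.

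Markers of fibroblasts, crypt-flanking stromal, neural and vascular cells and neutrophils were lower in ΔNFκB than in WT mice after DSS. Of all genes 11.7% were called lower and 8.32% higher. Fibroblast markers (12 genes) summed to 1170 to 1980 CPM in WT untreated, 1890 to 2900 in WT DSS, 1620 to 1660 in ΔNFκB untreated and 569 to 721 in ΔNFκB DSS libraries, and after DSS 11 of the 12 were called lower in ΔNFκB mice. Markers of crypt-flanking stromal cells (10 genes) summed to 506 and 741 CPM in WT DSS and 267 and 252 in ΔNFκB DSS, with 4 of 10 called lower. For neurons and glia (11 genes) the sums were 87.5 and 91.6 CPM in WT DSS and 17.2 and 13.9 in ΔNFκB DSS, with 9 of 11 called lower. For endothelium (8 genes) they were 107 and 138 in WT DSS and 37.7 and 28 in ΔNFκB DSS, with 6 of 8 called lower. Neutrophil markers (8 genes) rose with DSS in both genotypes, 8 of 8 each, from at most 9.15 CPM in untreated libraries to 320.0 and 421 in WT DSS and 78.9 and 79.7 in ΔNFκB DSS, and 8 of 8 were called lower in ΔNFκB mice after DSS. Colon epithelium markers (11 genes) went the other way, with 6960 and 7260 CPM in WT DSS and 13400 and 12400 in ΔNFκB DSS, 6 called higher and 1 lower. Smooth muscle markers fell with DSS in both genotypes, 11 of 11 each, from 4430 to 8420 CPM in untreated WT libraries to 1370 to 1720, and from 6820 to 7080 to 1190 in ΔNFκB libraries. Between the genotypes after DSS, 1 of these 11 was called lower in ΔNFκB mice (9.09%) and 0 higher. Pacemaker cell markers (3 genes) summed to 149 and 94.5 CPM in WT DSS and 186 and 169 in ΔNFκB DSS, although 2 of 3 were called lower. Of 7 macrophage markers 1 was called lower. None of the genes on these lists was at 0 in all libraries. The part of these shifts in the levels of Wnt pathway genes was not tested.

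**Figure D5:**
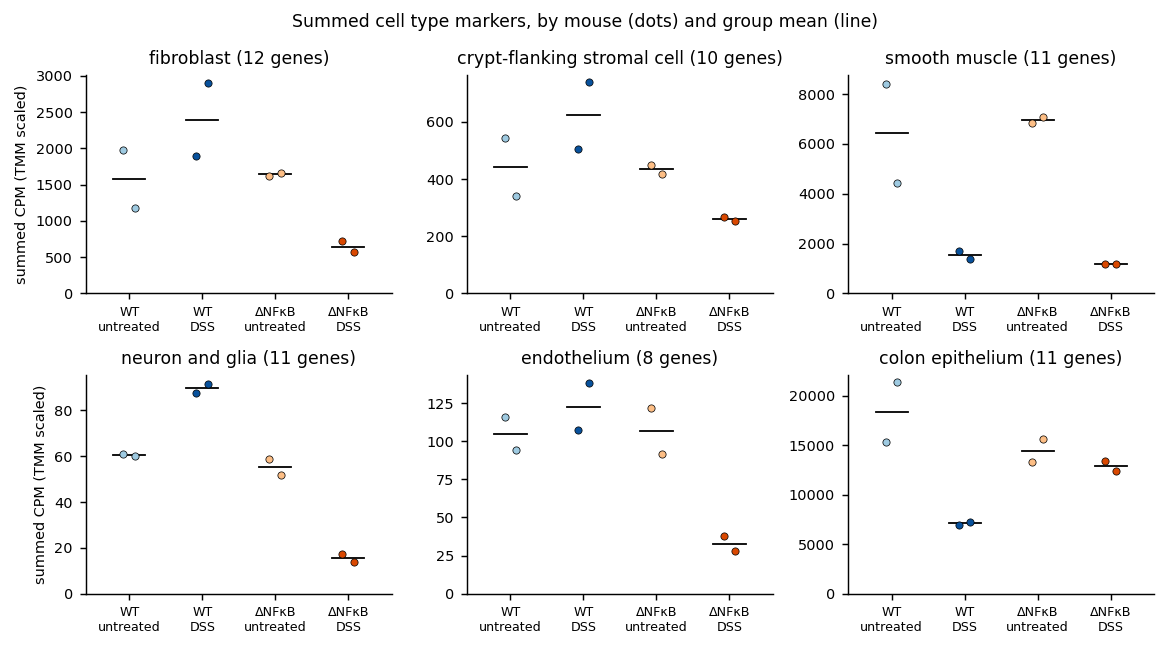
Summed CPM of marker lists for 6 cell types in each library (dots) with the group mean (line), each panel from 0. Fibroblast, neuron and glia, and endothelium sums are lowest in the ΔNFκB DSS group, smooth muscle is low in both DSS groups, and colon epithelium is lowest in the WT DSS group.

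Among genes that secrete, receive or trim Wnt signals, outside the 44, Lgr5 had the largest DSS change in WT mice. Lgr5, the R-spondin receptor that marks crypt base stem cells, had 192 and 104 counts without and 3 and 0 with DSS in WT mice, and 97 and 78 without and 47 and 26 with DSS in ΔNFκB mice. In WT mice it was 76.5-fold lower with DSS (95% exact counting interval 25.9 to 373), with an adjusted p of 0.000991, and the log2 fold change in ΔNFκB mice was -0.90 (adjusted p = 0.194). The responses differed by 5.29 ± 0.99 (adjusted p = 0.0140), opposite in sign to the 9 members above. Without WT DSS replicate 2, the library at 0, that adjusted p was 0.0520 and the one for the genotype difference after DSS was 0.0596, and in limma-voom they were 0.0530 and 0.0624. Without WT DSS replicate 1 the fitted difference of responses was 9.15, set by the library at 0. Of the 18 tested genes of this list 4 rose and 5 fell in WT mice (50.0%, against 36.0% of all genes), and 0 rose and 6 fell in ΔNFκB mice (33.3%, near the 35.4% of all genes). The median log2 fold changes were -0.11 and -0.75, against 0.00 and -0.04 over all genes. Wls, which carries Wnt ligands to the cell surface, had a log2 fold change of -0.64 ± 0.10 in WT mice (adjusted p = 0.00275) and -0.94 ± 0.10 in ΔNFκB mice (adjusted p = 0.000544). Kremen2, a receptor for Dkk proteins, rose by 1.51 ± 0.23 in WT mice (adjusted p = 0.00211). The proteoglycan Gpc3 fell by 2.97 ± 0.30 (adjusted p = 0.000405) and the receptor kinase Ror1 by 1.97 ± 0.24 (adjusted p = 0.000830) in ΔNFκB mice. After DSS 8 of the 18 were lower in ΔNFκB mice and 2 higher (55.6%, against 20.0% of all genes), among them Apcdd1 at -1.72 ± 0.30 (adjusted p = 0.00833), Gpc3 at -1.76 ± 0.32 (adjusted p = 0.00920) and Lgr5, 26.6-fold higher (8.75 to 132). Without a single DSS library (WT replicate 2, or ΔNFκB replicate 2) Apcdd1 (0.0623, 0.0598) and Gpc3 (0.0587, 0.0854) were lost, and Apcdd1 also without ΔNFκB DSS replicate 1 (0.0558). The called genes of this list went from 10 to 5 in limma-voom and to 0 with 1 library left out.

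β-catenin target genes were mixed. Of 17 tested, 3 rose and 4 fell with DSS in WT mice (41.2%, against 36.0% of all genes), and 2 rose and 6 fell in ΔNFκB mice (47.1%, against 35.4%). After DSS 2 were higher and 1 lower in ΔNFκB mice (17.6%, against 20.0%). Axin2, a negative regulator and general readout of the pathway, had 309 and 293 counts in untreated and 157 and 72 in DSS-treated WT mice, against 373 and 264 in untreated and 179 and 154 in DSS-treated ΔNFκB mice. Its log2 fold change was -1.03 ± 0.34 in WT mice (adjusted p = 0.0473) and -0.57 ± 0.34 in ΔNFκB mice (adjusted p = 0.216), and the difference of responses was not called (adjusted p = 0.527). The Axin2 call in WT mice was lost without any library but WT DSS replicate 1. Its value was -0.55 without WT DSS replicate 2 and -1.76 without replicate 1. The call was also lost with upper quartile factors (adjusted p = 0.0567), with a sex term (0.0689) and with only the groups compared in the fit (0.0841). Scaling that left out immunoglobulin and like genes lost it too (0.05075). Nkd1, a feedback inhibitor, had 8.38 and 7.51 CPM without and 6.47 and 8.06 with DSS in WT mice, and 9.23 and 9.68 without and 3.28 and 2.99 with DSS in ΔNFκB mice. It fell in ΔNFκB mice by 1.59 ± 0.22 on the log2 scale (adjusted p = 0.00121), and the responses differed by -1.46 ± 0.29 (adjusted p = 0.0171). With DSS the 2 genotypes differed by -1.21 ± 0.22 (adjusted p = 0.00911), a call lost without WT DSS replicate 2 (0.0681) or ΔNFκB DSS replicate 2 (0.0811). The difference of responses was lost without these libraries (0.0674 and 0.0778) or ΔNFκB untreated replicate 1 (0.0523). Its relative Nkd2 fell in WT mice (-1.38 ± 0.29, adjusted p = 0.00874, and 0.0577 without WT DSS replicate 2) and in ΔNFκB mice (-2.81 ± 0.32, adjusted p = 0.000606). Ephb2 and Ephb3, both receptor kinases, went opposite ways in WT mice, at 0.75 (adjusted p = 0.00827) and -0.97 (adjusted p = 0.0110). With a library left out these values ran from 0.58 to 1.01 and from -1.38 to -0.65, and the Ephb2 call was lost without WT DSS replicate 1. The cell cycle gene Ccnd1 rose in ΔNFκB mice by 1.64 ± 0.17 (adjusted p = 0.000421), and its difference of responses of 1.33 ± 0.24 (adjusted p = 0.0128) held with any library left out. After DSS Ccnd1 was higher in ΔNFκB mice by 0.79 ± 0.17 (adjusted p = 0.0157), which was lost without WT DSS replicate 2 or either ΔNFκB DSS replicate (0.0730 to 0.0830). The receptor kinase Ephb3 was higher by 0.82 ± 0.22 (adjusted p = 0.0344), which was lost without any of 5 libraries (up to 0.144), with upper quartile factors (0.0518) and with only the groups compared in the fit (0.0552). The Ephb3 value was 1.24 with WT DSS replicate 1 left out and 0.51 with replicate 2 of that group left out. Notum, a target whose product inactivates Wnt ligands, had at most 5 counts in a library and was not tested.

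Of 26 tested genes of the β-catenin core, 5 rose and 1 fell in WT mice and 3 rose and 3 fell in ΔNFκB mice, 23.1% in each, below the 36.0% and 35.4% of all genes. β-catenin itself, Ctnnb1, fell in WT mice by 0.58 ± 0.13 on the log2 scale (adjusted p = 0.00939, and 0.0771 without WT DSS replicate 2), and the scaffold Dvl3 rose by 0.51 ± 0.11 (adjusted p = 0.00937, and 0.0630 without WT DSS replicate 1). In ΔNFκB mice the kinase Gsk3a rose by 0.82 ± 0.12 (adjusted p = 0.00162, and 0.0554 with a sex term). With a sex term the called genes of this list went from 6 to 3 in WT mice and from 6 to 1 in ΔNFκB mice. After DSS 2 of the 26 were higher and 0 lower in ΔNFκB mice (7.69%, against 20.0% of all genes): the transcription factor Tcf7l2 at 0.95 ± 0.20 (adjusted p = 0.0148), which was lost without WT DSS replicate 2 (0.111) or ΔNFκB DSS replicate 2 (0.122), and Gsk3a at 0.43 ± 0.12 (adjusted p = 0.0385), which was lost without any of 6 libraries (up to 0.264) and in DESeq2 (0.0904).

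In the planar polarity and other branches that do not use β-catenin, 7 of 18 tested genes rose and 1 fell in WT mice (44.4%, against 36.0% of all genes), and 4 rose and 3 fell in ΔNFκB mice (38.9%, near the 35.4% of all genes). Celsr1, a polarity cadherin, rose in both genotypes, by 1.10 ± 0.15 (adjusted p = 0.00136) and 1.95 ± 0.15 (adjusted p = 0.000159). After DSS 3 of the 18 were higher and 4 lower in ΔNFκB mice (38.9%, against 20.0%). Daam2 was lower, at -1.49 ± 0.19 (adjusted p = 0.00318), a call that held with any library left out. Prickle1 was lower, at -2.00 ± 0.32 (adjusted p = 0.00645) and Prickle2 at -2.39 ± 0.43 (adjusted p = 0.00896), and both calls were lost without ΔNFκB DSS replicate 2 (0.0701 and 0.0905), while Prickle2 was at -1.59 without WT DSS replicate 2. With a sex term the called genes of this list went from 8 to 4 in WT mice and from 7 to 3 in ΔNFκB mice. Without DSS edgeR called 0 of the 79 tested genes of these 4 lists between the genotypes, where 0.388% of all genes were called. Of the 79, 12 had an unadjusted p under 0.05, a share near the 16.2% of all genes. DESeq2 called 1, a target gene, and edgeR without the count filter called 2 of the target genes.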

How the data were processed

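Total RNA of distal colon was sequenced as paired reads of 150 bp. Per the submitters' processing notes the tools were HISAT2 2.1, SAMtools 1.8 and featureCounts with Subread 1.6.2, and the genome was mm10. The authors deposited estimated counts per gene without normalization: 18.8% of nonzero values were not whole, so the deposited expected counts were rounded to whole numbers, although whole counts had been planned for. Symbols on more than 1 line (115) were summed. GENCODE M21 held all 55536 identifiers with the same symbols and gave positions and exon lengths.

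After the filterByExpr filter and TMM scaling (factors 0.882 to 1.15), 1 edgeR 4.0.16 quasi-likelihood fit of 4 group means (R 4.3.3, 4 residual degrees of freedom, biological coefficient of variation 17.1%) gave two-sided tests, adjusted by Benjamini-Hochberg over 17522 genes. Standard errors were taken as the size of the log2 fold change over the root of F. An exact permutation of 2 against 2 cannot go below p = 0.333. Nothing in the labels says how mice were housed or allotted. The p-values rest on the spread between these mice within groups, pooled over the 4 groups and moderated across genes (prior degrees of freedom 4.28). They do not measure the spread of the compared groups alone. By Y-linked transcripts the WT untreated pair read as a female and a male, so the pooled spread includes that difference.

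The members and gene lists were chosen with earlier results of these data known. Values per library are given for members past the test at least once. Of each pathway list up to 3 called genes with the smallest p are named per comparison, with Axin2, Lgr5, Nkd1 and Notum, and, added after seeing the data, every list gene with a called difference of responses. Wnt5a and the other uncalled members with values were chosen after their values were seen. Groups with few counts are given as ratios with 95% exact intervals, and a floor of 3 counts stands for 0. Sex was read as male above 5 CPM of Y-linked transcripts. The script was tested on simulated data. The alternatives tried were upper quartile and RLE factors, DESeq2 1.42.0, limma-voom 3.58.1, other filters, a replicate block, only the groups compared, a sex term, scaling without mitochondrial, ribosomal RNA, T cell receptor and immunoglobulin genes, the Ensembl table, no rounding, and each library left out, where a lone mouse is assumed to vary like the others.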

Additional observations from a re-analysis of the deposited data

Results flagged for a closer look

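The DSS response differed between the genotypes, by the test of the difference itself in edgeR, for 24 genes, 9 members and 15 of the 79 tested genes of the 4 pathway lists. Over all genes 17.7% were called in this test, against 32.1% of the 28 tested members. The 15 of 79 list genes lay near the share of all genes. Values are the response of ΔNFκB mice minus that of WT mice on the log2 scale, and negative values mean a more negative response in ΔNFκB mice. Among the members the differences were -1.78 for Wnt2b, -2.21 for Rspo3, -1.17 for Fzd1, -1.88 for Fzd3, -1.55 for Fzd4, -2.26 for Sfrp1, -2.51 for Sfrp4, -3.85 for Dkk2 and -1.96 for Dkk3. Among the other pathway genes they were -1.01 for Kremen1, -1.31 for Kremen2, -1.73 for Apcdd1, -1.56 for Gpc3, -2.07 for Porcn, -0.94 for Csnk1e, -1.46 for Nkd1, -1.57 for Daam2, -2.30 for Prickle1 and -2.37 for Prickle2. In the other direction they were 5.29 for Lgr5, 1.33 for Ccnd1, 0.85 for Celsr1, 1.47 for Intu and 0.63 for Rac1. With each of the 8 libraries left out in turn, Dkk3, Sfrp1 and Ccnd1 stayed past the threshold in every fit. Those lost without 1 library were Fzd1 (adjusted p = 0.0520) and Daam2 (0.0509), both without ΔNFκB DSS replicate 2, and Lgr5 (0.0520) without WT DSS replicate 2. The other 18 were lost without 3 to 8 of the libraries.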

How the results depend on the processing

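With 2 mice a group, 1 library could decide a call. Leaving out each library in turn, the members called with DSS ranged from 3 to 8 in WT mice and from 11 to 18 in ΔNFκB mice. Between the genotypes they stayed at 0 without DSS and ranged from 3 to 10 after DSS, and in the difference of responses from 2 to 8. DESeq2 called 5 members in the difference of responses, against 9 in edgeR. Fzd3, Sfrp4 and Wnt2b were lost, and Dkk2 was given no adjusted p. The other settings kept every member count within 1.5 times. For 112 named values recomputed 2211 times, 253 recomputed values were no longer past the threshold, 31 newly passed it, 1923 kept direction and side, and 4 changed sign. The 4 were uncalled values near 0: Axin2 between untreated genotypes (-0.069 to 0.384 with a library left out), Axin2 in the difference of responses (-0.018 to 1.189), Nkd1 with DSS in WT mice (-0.301 to 0.01), and Lgr5 between untreated genotypes (0.005 with a sex term).

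The labels do not say whether replicate numbers pair the mice. Deviations of same-numbered libraries correlated at -0.126 to 0.244 between groups, which cannot settle it with 2 mice a group. With the replicate number as a block, 8 members were called in WT mice, 18 in ΔNFκB mice, 0 and 9 between the genotypes without and after DSS, and 8 in the difference of responses. Among named values the block lost Sfrp1 with DSS in WT mice (adjusted p = 0.0656) and the differences of responses of Sfrp4 (0.0524) and Csnk1e (0.0509), and newly passed Wnt4 with DSS in WT mice (0.0409) and Fzd7 in ΔNFκB mice (0.0306). A block with crossed numbers in the untreated comparison, added after seeing the data, called 0. Upper quartile factors moved the median difference of responses over all genes to -0.144. Low counts limit several members, among them Wnt2, Wnt8b, Wnt9a, Wnt10b, Wnt11, Dkk2, Sfrp5, Wif1, Rspo1 and Rspo2. For each of these 1 ΔNFκB DSS library or both held 0 to 2 counts. Wnt8b also had only 1 and 2 counts in the WT DSS libraries.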
